A study of Mus musculus with 153 samples.

Results

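A set of 7 genes taken to mark excitatory neuron identity were followed through RNA sequencing of mouse dorsal hippocampus: Slc17a7, Neurod1, Neurod2, Neurod6, Emx1, Zbtb18 and Mef2c. They were chosen by name, with earlier results of these data known. These 7 are among 25103 gene symbols listed in at least 1 of 6 count tables. All 7 stood in every table and passed the filter on low counts in every fit. Mice of 3 genotypes were used, Camk2a.Cre/TRAPfl, Pvalb.Cre/TRAPfl and Sst.Cre/TRAPfl, so every animal carried a Cre driver and the floxed TRAP allele, and age, sex and strain are not given in the labels. In TRAP (translating ribosome affinity purification) Cre switches on a tagged ribosomal protein, and capture of the tag recovers mRNA that was being translated in the Cre cells. Camk2a is expressed mainly in excitatory neurons, Pvalb in fast-spiking GABA interneurons and Sst in somatostatin interneurons. RNA on the captured ribosomes (purified) and RNA of all cells of the tissue (total lysate) were both sequenced. Some mice were taken from the home cage, some were placed in a new context without shock (box) and some received a shock there (shock), and the box and shock mice belong to a set labelled 15 min or to a set labelled 60 min. Each set has its own home cage mice. The 36 groups of line, set, fraction and treatment held 3 to 6 libraries, 76 purified and 75 lysate in all, which the submitters call biological replicates, and all p-values rest on the spread among them.

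Slc17a7 encodes the transporter VGLUT1, which loads glutamate into synaptic vesicles, and its presence defines most cortical and hippocampal glutamatergic neurons. Neurod1, Neurod2 and Neurod6 are basic helix-loop-helix factors of one family: Neurod1 acts early, in newborn granule neurons among others, and Neurod2 and Neurod6 remain on in mature pyramidal and granule neurons. Emx1 is a homeobox factor of the dorsal telencephalon, Zbtb18 (also called RP58) a zinc finger repressor of developing glutamatergic neurons, and Mef2c a MADS-box factor that restrains synapse number in excitatory neurons and is also known from parvalbumin interneurons. In GRCm38 (GENCODE M21), Slc17a7 lies at chr7:45163949-45176142 on the plus strand, Neurod1 at chr2:79452521-79456751 (minus), Neurod2 at chr11:98325415-98329648 (minus), Neurod6 at chr6:55677822-55681263 (minus), Emx1 at chr6:85187438-85204462 (plus), Zbtb18 at chr1:177442351-177450764 (plus) and Mef2c at chr13:83504034-83667080 (plus). Neurod1 overlaps Cerkl on its own strand and the antisense model Gm26755, and Zbtb18 overlaps the antisense model Gm26801. The library kit does not mark the strand, so reads from shared bases cannot be assigned and values of these 2 members are less certain.

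NeuroD factors bind the E-box, written CANNTG and the same on both strands. The 250 bases before the annotated start of Slc17a7, Neurod2 and Neurod6 are shown, 5′ to 3′ on the gene's strand with E-box letters in capitals. These 3 members, like all 7, differed between purified Camk2a and Pvalb libraries in both time sets. They include genes rich (Slc17a7, Neurod2) and poor (Neurod6) in G and C. The windows are from RefSeq on GRCm38.p6, at chr7:45163671-45163920, chr11:98329646-98329895 and chr6:55681264-55681513.

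Slc17a7: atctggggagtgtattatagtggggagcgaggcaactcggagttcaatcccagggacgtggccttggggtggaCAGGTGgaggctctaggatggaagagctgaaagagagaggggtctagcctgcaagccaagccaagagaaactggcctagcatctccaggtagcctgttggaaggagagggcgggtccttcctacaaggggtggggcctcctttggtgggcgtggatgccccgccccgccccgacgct

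Neurod2: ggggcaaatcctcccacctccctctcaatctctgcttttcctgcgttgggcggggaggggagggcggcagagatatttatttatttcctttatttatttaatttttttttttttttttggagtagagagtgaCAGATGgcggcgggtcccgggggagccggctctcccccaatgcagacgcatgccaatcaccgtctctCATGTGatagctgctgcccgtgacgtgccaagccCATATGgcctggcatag

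Neurod6: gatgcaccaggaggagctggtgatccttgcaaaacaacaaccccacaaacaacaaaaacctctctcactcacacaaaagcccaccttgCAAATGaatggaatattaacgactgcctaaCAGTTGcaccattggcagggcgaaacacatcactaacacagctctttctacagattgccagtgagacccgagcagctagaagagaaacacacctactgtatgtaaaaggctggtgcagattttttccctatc

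The window of Slc17a7 was 61.2% G or C, that of Neurod2 52.8% and that of Neurod6 46.0%. Counted from the start, E-box letters began at -177 in Slc17a7, at -118, -51 and -17 in Neurod2, and at -162 and -132 in Neurod6. All 7 members matched the RefSeq table, with 13 entries, of which 12 held the letters. The letters occurred in 66.2% of all 32851 windows, so their presence does not set the members apart. A match is a description of letters and not of a binding site.

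Total counts per library ran from 9043042 to 397228206. Lists of cell class markers, taken as summed CPM, the usual count scaled to library size, matched the labels of the Camk2a and Pvalb lines: purified Pvalb libraries held 951 to 3073 CPM of the Pvalb neuron list against 144.7 to 395 CPM in the lysates of the Camk2a and Pvalb lines, and purified Camk2a libraries held 51.6 to 413 CPM of the GABA neuron list against 823 to 1248 CPM in their lysates. Purified Pvalb libraries also held Sst markers. In the home cage and shock libraries of the 60 min set, the Sst neuron list lay above its highest level in any lysate. The ranges are given below. The Sst line was uneven. In 8 of its 25 purified libraries the Sst neuron list lay at or below its highest level in any lysate of the study, 796 CPM, and in the 60 min set the Sst transcript itself was at 0.333 and 0.386 CPM in the lysates and 2.98 and 5.28 CPM in the purified libraries of shock mice 1 and 4. In 7 purified Sst libraries the microglial list exceeded 1000 CPM (2457 to 4377 CPM), while it was 48.5 to 532 CPM in the other 18. The 8 include all 4 purified shock libraries of the 60 min set. Comparisons of the Sst line with other lines or with its lysates, and the 15 min treatments, are given with and without the 8. At 60 min the fits without the 8 also left out all other shock libraries in the fit, including those of other lines or of the lysate. The 60 min shock contrasts cannot be made without the 8, and the time sets of this line were compared only with them.

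No library of either fraction had a member at 0. Levels per kilobase of exon, which allow genes to be compared, had lysate medians of 246 CPM per kb for Neurod6, 196 for Slc17a7, 81.2 for Zbtb18, 27.7 for Neurod2, 15.3 for Neurod1, 8.16 for Mef2c and 3.38 for Emx1. Neurod6 and Slc17a7 thus led in whole tissue, and Emx1 was the scarcest member. Across purified libraries the highest value exceeded the lowest by 16.4-fold for Mef2c to 39.6-fold for Neurod1, against 6.24-fold to 9.37-fold across lysates.

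Slc17a7 was highest in purified Camk2a libraries of the 60 min set, with a median of 2118 CPM (lowest 1264, highest 2538, n = 12). It was lowest in purified Pvalb libraries, with 214 CPM at 60 min (119.9 to 409.7, n = 16) and 262 CPM at 15 min (150.4 to 1163, n = 13). Purified Camk2a and Pvalb libraries did not overlap at 60 min, and at 15 min they overlapped only through Pvalb shock mice 1, 2 and 3. Of the lysates, 5 of the 6 sets lay at medians of 595 to 1247 CPM, and the Sst lysates of the 60 min set had a median of 387 CPM and ran from 259.7 to 1732 CPM. Purified Sst libraries ran from 104 to 3599 CPM at 15 min (median 994, n = 12) and from 542 to 2459 CPM at 60 min (median 971, n = 13). The 15 min Sst libraries thus covered the whole range from the lowest Pvalb values to above the highest Camk2a value, and their median does not fix a place in the order.

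**Figure D1:**
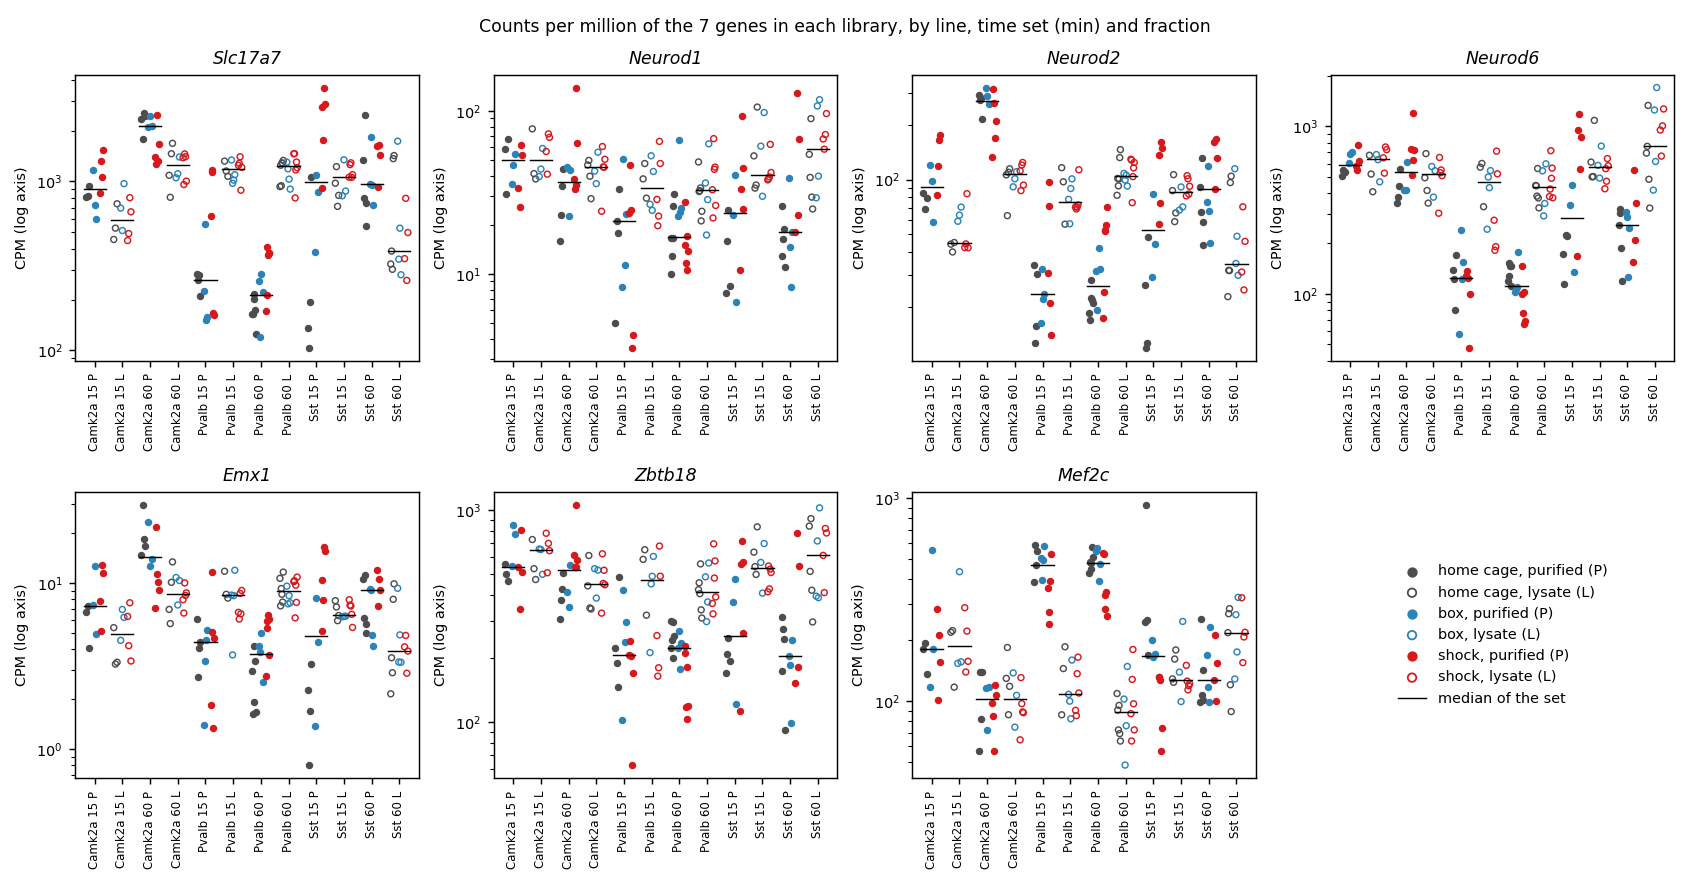
Level of each of the 7 genes in every library (CPM on a log axis; 1 panel per gene), by line, time set and fraction, with a bar at the median of each of the 12 sets. Slc17a7, Neurod2 and Neurod6 sit lowest in purified Pvalb libraries, Mef2c sits highest there (medians 470.3 and 479 CPM), and Slc17a7 in purified Sst libraries of the 15 min set runs from 104 to 3599 CPM.

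Neurod2 followed the transporter, with medians of 268 CPM in purified Camk2a libraries at 60 min (134 to 319.6) and 91.5 CPM at 15 min (58.6 to 175), against 26.1 CPM (16.9 to 70.8) and 23.6 CPM (12.7 to 96.7) in purified Pvalb libraries. Neurod6 had medians of 535 and 592 CPM in purified Camk2a libraries at 60 and 15 min, and of 111.0 and 125 CPM in purified Pvalb libraries. The highest purified Pvalb value of Neurod6, 239.9 CPM, lay below the lowest purified Camk2a value, 348 CPM, with both sets pooled. Zbtb18 was lower in purified Pvalb libraries as well, with medians of 224 and 207 CPM at 60 and 15 min against 523 and 541 CPM in purified Camk2a libraries. Neurod1 was scarce everywhere, with set medians of 16.9 to 58.2 CPM. Emx1 had set medians of 3.76 to 14.4 CPM.

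Mef2c went against the name of the group. Its medians were 479 CPM (264.6 to 574) in purified Pvalb libraries at 60 min and 470.3 CPM (239 to 586) at 15 min. Every other set had a median of 88.6 to 218 CPM, purified Camk2a libraries among them with 103 CPM at 60 min and 181 CPM at 15 min. At 60 min no purified Camk2a library (56.7 to 139 CPM) reached a purified Pvalb library, and at 15 min Camk2a box 2 (558 CPM) and shock 1 (286 CPM) did.

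The members fell into groups by their pattern over the 36 group means, given as a description over points that share tables and library depth. Pearson's r of log2(CPM + 1) was 0.927 between Slc17a7 and Neurod2, 0.956 between Neurod2 and Emx1, 0.928 between Neurod6 and Zbtb18, and 0.901 between Neurod1 and Zbtb18. Between those groups it was lower, 0.608 for Slc17a7 with Neurod6 and 0.376 for Slc17a7 with Neurod1. Mef2c ran opposite to Slc17a7, at -0.905. Within lysates alone (18 group means) Slc17a7 and Neurod6 ran opposite to each other, at -0.743, while within purified libraries (18 group means) they ran together, at 0.804. Exon GC content differed between the members too: Slc17a7 (56.6%), Neurod2 (58.7%) and Emx1 (66.8%) lay above the median of 49.8% over 12843 genes, and Neurod1 (43.6%), Neurod6 (41.9%), Zbtb18 (42.4%) and Mef2c (40.8%) lay below it.

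The purified fraction was then compared with the lysate of the same line and set, which asks where in the tissue the transcripts sit. In the Camk2a line the transporter and the factors Neurod2, Neurod6 and Emx1 were enriched on the marked ribosomes. In the Pvalb line the same 4 genes and Zbtb18 were depleted and Mef2c was enriched. Log2 fold changes are given ± SE, and calls and adjusted p-values come from the quasi-likelihood test of edgeR, adjusted by Benjamini and Hochberg's method over all genes, at 0.05. In bulk RNA, fewer cells of a type and less RNA per cell cannot be told apart.

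In the Camk2a line at 60 min (12 libraries of each fraction), 5 of 7 members rose in the purified fraction and 0 fell. In this comparison 57.5% of all genes tested were called, with 3664 of 16519 rising and 5839 falling. Neurod2 rose by 1.62 ± 0.13 on the log2 scale, 3.07-fold (adjusted p = 2.96e-10). Slc17a7 rose by 1.01 ± 0.13 (adjusted p = 3.17e-07) and Emx1 by 1.12 ± 0.20 (adjusted p = 4.14e-05). Neurod6 (0.41 ± 0.16) and Zbtb18 (0.38 ± 0.15) rose less, and each lost its call in 4 of 12 refits that left out 1 replicate number, Neurod6 without box 2 or 3 or home cage 3 or 4, and Zbtb18 without box 3, home cage 3 or 4 or shock 4, with values down to 0.32 and 0.31. In home cage libraries alone they were at 0.14 and 0.21. With an offset for GC content and length, Emx1 was at 0.24 and no longer called, and Slc17a7 (0.99), Neurod2 (1.46), Neurod6 (0.53) and Zbtb18 (0.58) were called.

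At 15 min (10 libraries of each fraction) 4 of 7 members rose in the Camk2a line, against 50.7% of all genes called: Neurod2 by 1.25 ± 0.16, Slc17a7 by 0.95 ± 0.16, Emx1 by 0.97 ± 0.25 and Neurod6 by 0.37 ± 0.11. In home cage libraries alone Emx1 (0.90) and Neurod6 (0.30) were not called. Neurod1 and Mef2c passed in neither set. The median over the 7 members was 0.37 at 15 min and 0.41 at 60 min, beside -0.14 and -0.26 over all genes tested. Glial lists moved the other way in the same libraries: at 60 min all 7 astrocyte genes, all 7 oligodendrocyte genes and all 7 microglial genes fell, with medians of -3.86, -3.54 and -3.43.

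In the Pvalb line at 60 min (60.4% of all genes called), 6 of 7 members were called. Slc17a7 fell by 2.08 ± 0.12, 4.22-fold (adjusted p = 1.18e-15), and its highest purified value of 409.7 CPM lay below the lowest lysate value of 799 CPM. Neurod6 fell by 1.69 ± 0.13, Neurod2 by 1.52 ± 0.14, Emx1 by 0.98 ± 0.16 and Zbtb18 by 0.77 ± 0.14. Mef2c rose by 2.56 ± 0.16, 5.91-fold (adjusted p = 5.16e-15), with every purified library above every lysate (48.5 to 180.0 CPM). Neurod1 was at -0.43 ± 0.21 (adjusted p = 0.0751), and it was called with the GC and length offsets, at -0.67.

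The 15 min Pvalb set gave the same 6 calls (45.6% of all genes called). Neurod6 fell by 1.56 ± 0.24 and Neurod2 by 1.29 ± 0.23, Slc17a7 stood at -1.50 ± 0.25, and Mef2c rose by 2.13 ± 0.18 (4.37-fold). Emx1 (-0.73 ± 0.29) and Zbtb18 (-0.68 ± 0.27) were weaker, losing the call in 10 and in 7 of 14 refits without 1 replicate number, at values of -0.63 and -0.48 at the weakest. In home cage libraries alone Emx1 (-0.84) and Zbtb18 (-0.66) were not called. Purified shock mice 2 and 3 of this set stood apart with Slc17a7 at 1132 and 1163 CPM; their Pvalb neuron list was at 951 and 1063 CPM against a set median of 2496 CPM.

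**Figure D2:**
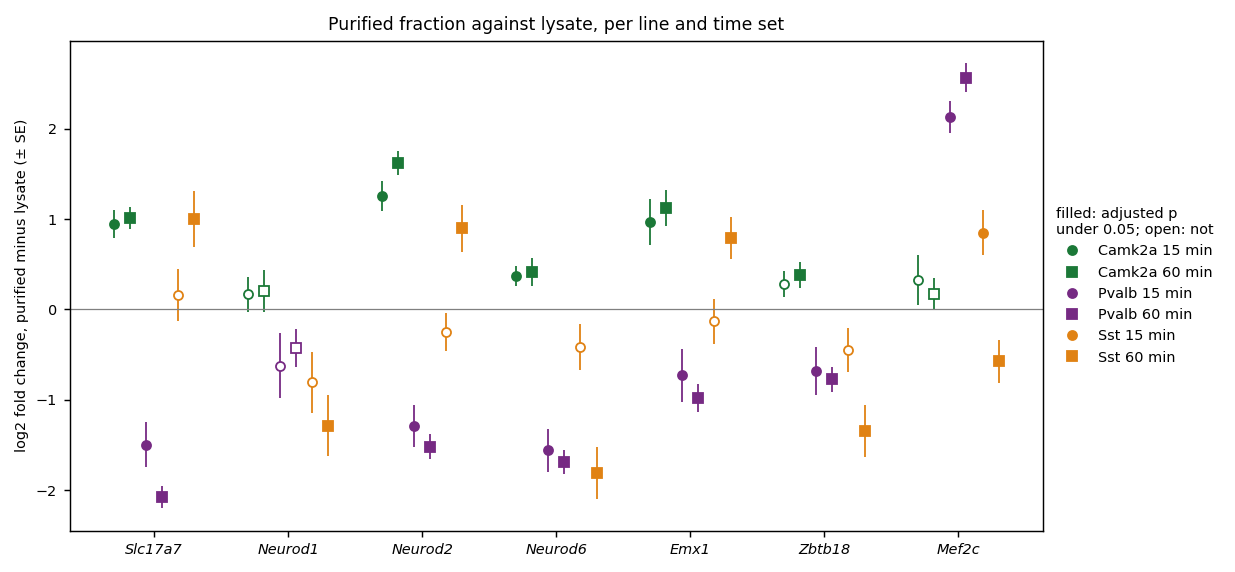
Log2 fold change of the purified fraction over the lysate for the 7 genes in the 3 lines and 2 time sets, with error bars of 1 SE; filled points passed the adjusted threshold of 0.05. Slc17a7 and Neurod2 lie above 0 in the Camk2a line and below 0 in the Pvalb line, and Mef2c does the reverse in the Pvalb line.

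In the Sst line the calls differed between sets and settings. At 15 min (44.5% of all genes called) only Mef2c passed, rising by 0.85 ± 0.25, and without home cage mouse 2, whose purified library held 929 CPM of Mef2c and 3032 CPM of the Pvalb neuron list, it was 0.52. The GC and length offsets called 5 members, with Neurod1 (-0.92), Emx1 (-0.63), Neurod6 (-0.59) and Zbtb18 (-0.45) below 0 and Mef2c at 0.76. Home cage libraries alone called 6: Neurod1, Neurod2, Neurod6, Emx1 and Zbtb18 at -1.59 to -1.20, and Mef2c at 1.82. Slc17a7 was not called there (-0.96), with medians of 164 CPM in purified and 902 CPM in lysate libraries. The share of 44.5% is that of the main fit with all libraries, so it is no background for the counts of 5 and 6. At 60 min (59.4% of all genes called) all 7 members passed: Slc17a7 (1.002 ± 0.31), Neurod2 (0.90 ± 0.26) and Emx1 (0.79 ± 0.23) rose, and Neurod6 (-1.81 ± 0.29), Zbtb18 (-1.35 ± 0.29), Neurod1 (-1.28 ± 0.33) and Mef2c (-0.58 ± 0.24) fell. The 3 that rose are the GC-rich members and the 4 that fell the GC-poor ones, and the part of base composition in this was not tested.

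With the GC and length offsets the 60 min Sst comparison kept 3 calls: Neurod6 at -0.60, Emx1 at -0.47 and Mef2c at 0.48, the last 2 with their signs turned. A further fit left out the Sst libraries at the lysate level of Sst markers and all shock libraries of both fractions. In it 3 members were called (Neurod6 -1.90, Neurod1 -1.68, Zbtb18 -1.65) and Slc17a7 stood at 0.54. Home cage libraries alone called the same 3 genes (Neurod6 -1.77, Neurod1 -1.66, Zbtb18 -1.59), with Slc17a7 at 0.69. Mef2c lost its call in 8 of 13 refits without 1 replicate number and was -0.87 without box mouse 1. Among the purified Sst libraries, the 4 of the 15 min set with a microglial list above 1000 CPM held 1766 to 3599 CPM of Slc17a7, and the other 8 held 104 to 1094 CPM. At 60 min the corresponding ranges were 1337 to 2459 CPM in 3 libraries and 542 to 1641 CPM in 10. The part of these markers in the result was not tested.

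Purified libraries of the 3 lines were compared within each time set to set the neuron classes side by side. Each line has its own table in each set, so line and table cannot be told apart. At 60 min purified Camk2a libraries exceeded Pvalb libraries in 6 members and lay below them in Mef2c, so all 7 were called, where 61.4% of all genes were. Slc17a7 was higher by 3.28 ± 0.19, 9.71-fold (adjusted p = 9.52e-18), and Neurod2 by 3.18 ± 0.19, 9.08-fold (adjusted p = 2.22e-17). Neurod6 was higher by 2.36 ± 0.18, Emx1 by 2.23 ± 0.20, Zbtb18 by 1.35 ± 0.20 and Neurod1 by 1.02 ± 0.28. Mef2c was lower by 2.06 ± 0.19 on the log2 scale, 4.17-fold, in the Camk2a line.

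The 15 min set gave all 7 calls in the same directions, against 46.1% of all genes: Neurod6 was higher in the Camk2a line by 2.45 ± 0.25, Neurod2 by 1.94 ± 0.27, Slc17a7 by 1.61 ± 0.33, Zbtb18 by 1.52 ± 0.27, Neurod1 by 1.37 ± 0.39 and Emx1 by 1.03 ± 0.33, and Mef2c stood at -0.95 ± 0.27. All 7 calls of both sets held with the GC and length offsets, with values of 2.92 for Slc17a7, 2.80 for Neurod6, 1.34 for Emx1 and -1.84 for Mef2c at 60 min. In home cage libraries alone 4 of the 7 were called at 15 min, and Neurod1 (1.60), Emx1 (0.66) and Mef2c (-1.38) were not. The 3 lines share a fit. Without the Sst libraries at the lysate level of Sst markers and without any shock library, Neurod1 at 60 min was 0.51 and no longer called. In the 15 min lysates of the same lines all 7 members were called as well (61.5% of all genes), 4 higher and 3 lower in the Camk2a line. The 3 lower ones were Slc17a7, Neurod2 and Emx1, opposite to the purified libraries. Neurod1, Neurod6 and Zbtb18 were higher in the Camk2a line in both fractions. At 60 min Camk2a minus Pvalb called 0 members in the lysates (0.129% of all genes). None of the 7 had an unadjusted p under 0.05, and DESeq2 called 0. The interval of Slc17a7 there (95%, from the SE) ran from -0.31 to 0.48 on the log2 scale.

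Camk2a against Sst called 6 members at 60 min, all higher in the Camk2a line (55.0% of all genes called). Neurod2 was higher by 1.75 ± 0.19, Neurod6 by 1.33 ± 0.18, Emx1 by 1.28 ± 0.21, Zbtb18 by 1.23 ± 0.21, Slc17a7 by 1.01 ± 0.18 and Neurod1 by 0.88 ± 0.30. Neurod1 fell short without Camk2a shock library 4, at 0.63. At 15 min 5 members were higher (39.5% called), from 0.84 ± 0.34 for Emx1 to 1.05 ± 0.40 for Neurod1. There Emx1 lost its call in 24 and Neurod1 in 11 of 35 refits without 1 library, at values down to 0.71 and 0.91. Mef2c passed in neither set, and with the GC and length offsets it was called at 60 min, at -0.75. Without the Sst libraries at the lysate level of Sst markers the 60 min values were larger for 5 of the 6 (Neurod2 2.19, Emx1 1.62, Slc17a7 1.42, Zbtb18 1.31, Neurod1 1.03) and 1.20 for Neurod6.

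Pvalb against Sst set both interneuron lines side by side. The Sst neuron list was above all lysates in purified Pvalb home cage and shock libraries at 60 min too, and its part here was not tested. At 60 min 5 members passed (52.3% of all genes called): Slc17a7 was lower in the Pvalb line by 2.26 ± 0.18 on the log2 scale, Neurod2 by 1.44 ± 0.17, Neurod6 by 1.02 ± 0.17 and Emx1 by 0.96 ± 0.20, and Mef2c was higher by 1.78 ± 0.17 (3.43-fold). At 15 min 4 members passed, where 10.4% of all genes did: Slc17a7 at -1.40 ± 0.32, Neurod2 at -0.93 ± 0.25, Neurod6 at -1.57 ± 0.23 and Mef2c at 1.12 ± 0.26. Without the Sst libraries at the lysate level of Sst markers, Slc17a7 was -2.27 and -1.18, and Mef2c 1.74 and 0.97, at 60 and 15 min. The 60 min fit here also lacked all shock libraries. Neurod2 at 15 min was -0.67 and no longer called. In home cage libraries alone 0 members were called by edgeR at 15 min (1 with an unadjusted p under 0.05), with Slc17a7 at -0.62, Neurod2 at -0.21, Neurod6 at -0.65 and Mef2c at 0.19.

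**Figure D3:**
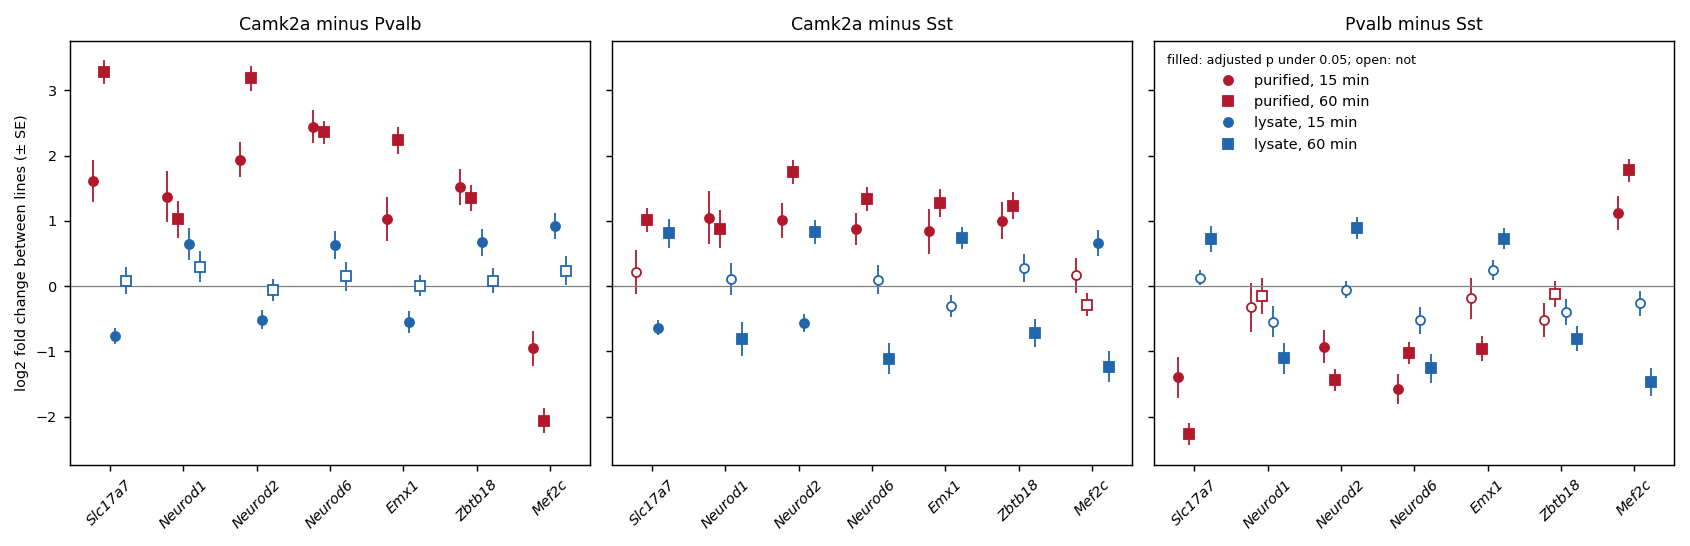
Log2 fold change between lines for the 7 genes, in purified libraries and in lysates of each time set, with error bars of 1 SE; filled points passed the adjusted threshold of 0.05. Camk2a minus Pvalb is above 0 for 6 genes in purified libraries of both sets, and in the 60 min lysates all 7 genes lie near 0.

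Lysates of different lines come from the same tissue. Nonetheless, all 7 members were called at 60 min both for Camk2a minus Sst (47.0% of all genes) and for Pvalb minus Sst (55.6%). In both, Slc17a7, Neurod2 and Emx1 were lower in the Sst lysates, by 0.72 to 0.89 on the log2 scale, and the other 4 were higher there; Mef2c minus its Sst level was -1.23 ± 0.23 and -1.47 ± 0.22. At 15 min the Camk2a lysates were the set that differed: 7 members were called against Pvalb (61.5%) and 3 against Sst (58.3%), with Slc17a7 at -0.77 ± 0.12 and -0.64 ± 0.12 and Mef2c at 0.92 ± 0.20 and 0.66 ± 0.20. Pvalb minus Sst called 0 members there (19.6% of all genes; 2 with an unadjusted p under 0.05; DESeq2 called 1). With the GC and length offsets the comparisons called 1 member each at 15 min (Emx1 for Camk2a minus Pvalb, Neurod6 for the other comparisons), and 3 and 2 at 60 min.

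The base composition of a library moved with these lysate differences. The GC slope of a library is the change of its log2 CPM, relative to the average library, per 10 percentage points of GC content over 12843 genes. In the 60 min Sst lysates, 10 libraries had slopes of -1.21 to -0.087 and Slc17a7 at 259.7 to 795 CPM, and the 3 deepest ones, box 1 and home cage 4 and 5 with 264109341 to 292132306 counts, had slopes of 0.277 to 0.453 and Slc17a7 at 1365 to 1732 CPM. Neurod6 ran the other way, at 617 to 1707 CPM in the 10 and 325 to 483 CPM in the 3. All other lysate sets had Slc17a7 between 447 and 1682 CPM. Leaving out the 3 deep lysates changed none of the member calls in the 6 comparisons of lines or treatments in the 60 min lysates, but it raised the differences: Slc17a7 was at 1.38 for Camk2a minus Sst and 1.30 for Pvalb minus Sst, Neurod2 at 1.23 and 1.30, and Emx1 at 1.06 and 1.06.

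Across all 151 libraries, the mean log2(CPM + 1) of the 3 GC-rich members minus that of the 4 GC-poor members ran from -3.93 to 1.13. The lowest was the Sst lysate of box mouse 4 at 60 min, with a slope of -1.21, and the highest the purified library of Camk2a home cage mouse 1 at 60 min, with a slope of 0.656. No test was made, since the slope and the difference both rest on GC content.

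**Figure D4:**
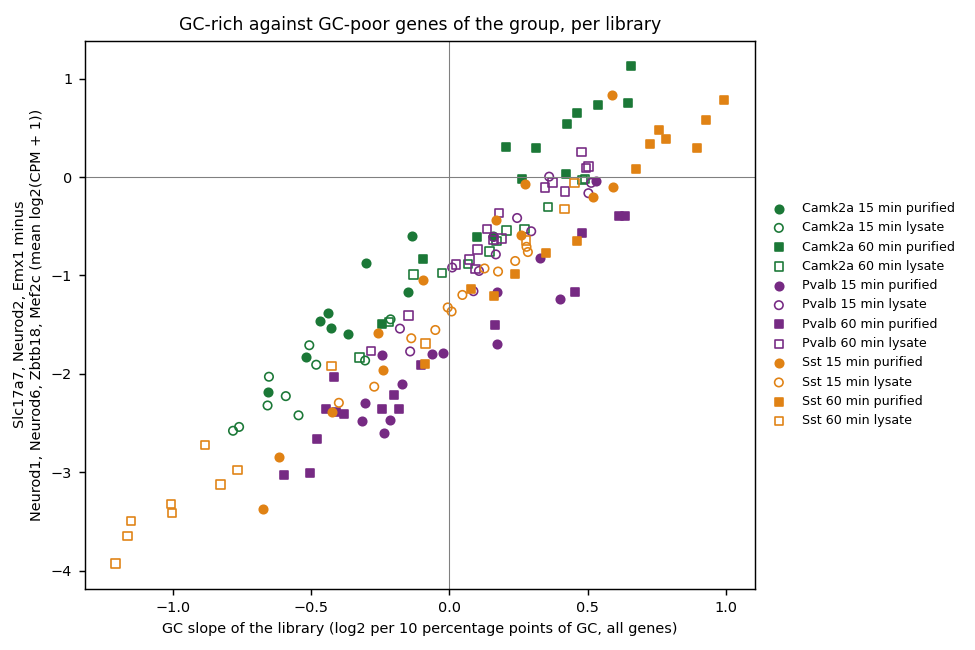
Mean log2(CPM + 1) of Slc17a7, Neurod2 and Emx1 minus that of Neurod1, Neurod6, Zbtb18 and Mef2c against the library's GC slope (log2 per 10 percentage points), 1 point per library; colour gives the line, circles the 15 min and squares the 60 min set, and open symbols the lysates. Points lie higher at higher slopes in every set. The 60 min Sst lysates reach down to -3.93 at a slope of -1.21, and the highest value, 1.13, belongs to a purified Camk2a library of the 60 min set.

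The response of the members to the new context and to shock was tested next. In whole tissue none was detected. With line as a covariate, 0 of 7 members were called by edgeR in any of the 6 lysate contrasts. DESeq2 also called 0, and 0 had an unadjusted p under 0.05. The background was also low: 0.0128%, 0.0% and 0.128% of all genes at 15 min (box minus home cage, shock minus box, shock minus home cage) and 0.0%, 0.0% and 0.0% at 60 min. Member values lay between -0.30 and 0.38 on the log2 scale, and the widest 95% intervals of shock minus home cage reached from -0.70 to 0.34 at 15 min and from -0.50 to 0.82 at 60 min.

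In purified Pvalb libraries of the 60 min set, 5 of 7 members differed between shock and home cage mice, where 35.0% of all genes tested did. Neurod2 in the 6 home cage libraries ranged from 16.9 to 28.1 CPM (median 21.4), and in the 6 shock libraries from 17.3 to 70.8 CPM (median 52.6). Shock libraries 3 to 6 lay above every home cage library, and shock libraries 1 and 2 lay among them. Neurod2 rose by 1.07 ± 0.27 on the log2 scale (2.10-fold, adjusted p = 0.00601), Slc17a7 by 0.87 ± 0.22 and Emx1 by 0.93 ± 0.34, while Zbtb18 fell by 0.67 ± 0.20 and Neurod6 by 0.53 ± 0.19. Slc17a7 was at 125 to 215 CPM in home cage libraries and at 170.0, 213, 409.7, 368, 379 and 375 CPM in shock libraries 1 to 6, so the same 4 shock libraries stood apart.

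Those 4 libraries also differed in base composition. Home cage libraries had GC slopes of -0.598 to -0.382, shock libraries 1 and 2 had -0.183 and -0.202, and shock libraries 3 to 6 had 0.453 to 0.636. The members that rose are the GC-rich ones. The part of base composition in the result was not tested. With the GC and length offsets 1 member was called, Mef2c at 0.31, and Slc17a7 (0.21), Neurod2 (0.22), Neurod6 (0.067) and Zbtb18 (-0.11) were not. Leaving out 1 library at a time called 3 to 6 members; it was 3 without home cage 3, home cage 6, 1 home cage library without a number, or shock 3, 4 or 6. Emx1 lost its call in 7 and Neurod6 in 8 of 16 refits, with weakest values of 0.82 and -0.42. The Pvalb neuron list was at 2102 to 2988 CPM in the shock libraries and 2159 to 3052 CPM in the home cage libraries, the GABA neuron list at 3083 to 5688 and 4562 to 6198 CPM, the Sst neuron list at 2615 to 3916 and 2019 to 2728 CPM, and the microglial list at 68.7 to 153 and 74.9 to 109 CPM; their part in the result was not tested.

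Shock minus box and box minus home cage called 0 members by edgeR in these libraries (0.0% and 0.0% of all genes), with an unadjusted p under 0.05 for 3 and 1 members; DESeq2 called 1 and 0. The shock response of the purified fraction minus that of the lysate called Neurod2 (0.95 ± 0.31) and Zbtb18 (-0.90 ± 0.31), beside 20.4% of all genes. Neither call was firm: over 18 refits without 1 replicate number the count was 0 without home cage 5 or 6 or shock 3, 4, 5 or 6, 1 without home cage 2 or 3, 4 without box 2 or home cage 4, 5 without shock 2 and 6 without shock 1.

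**Figure D5:**
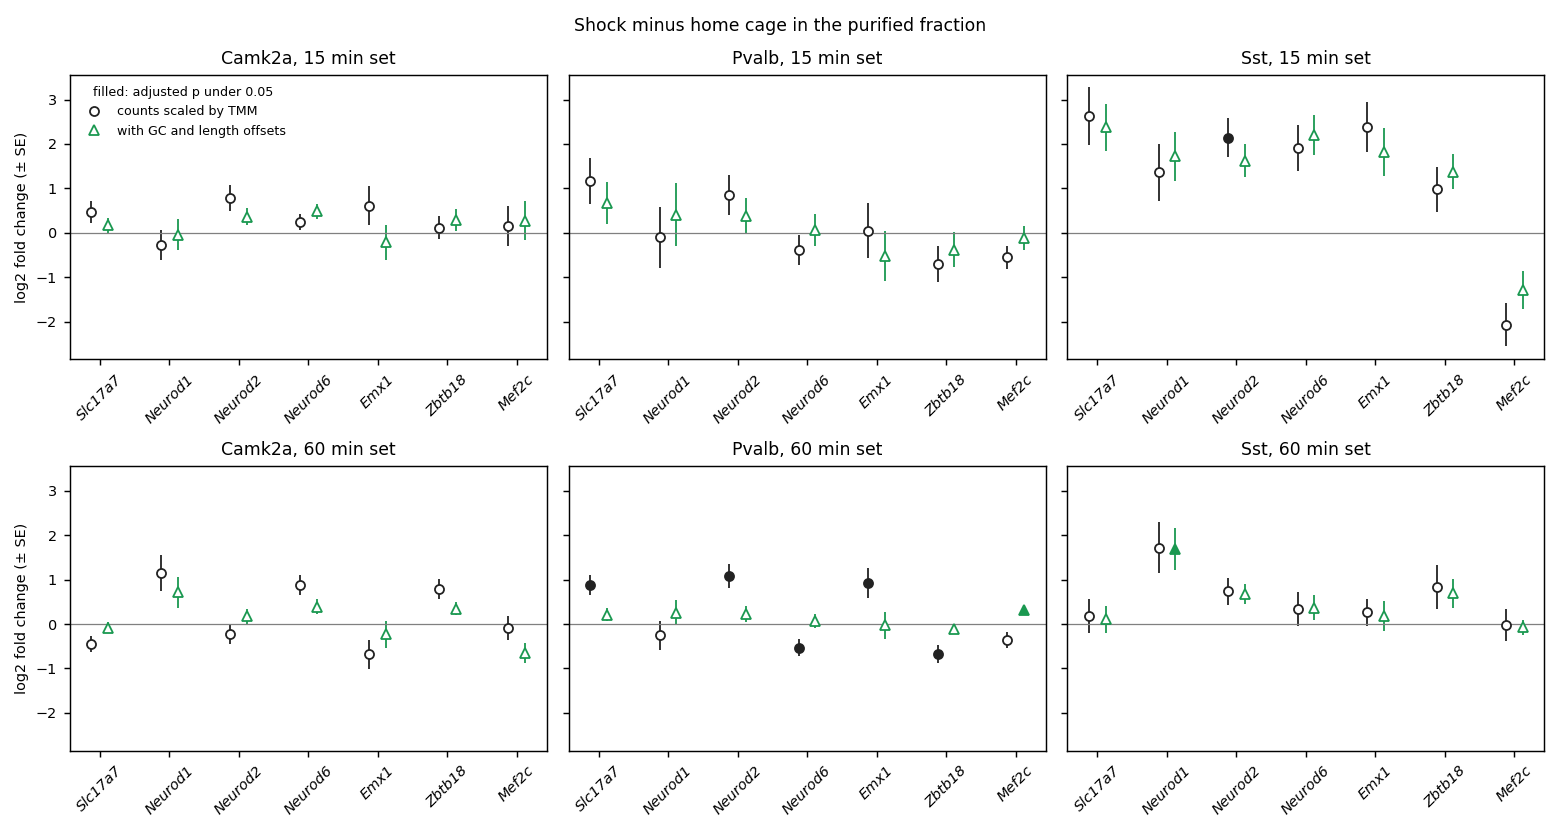
Log2 fold change of shock over home cage for the 7 genes in purified libraries of the 3 lines and 2 time sets, without (black circles) and with (green triangles) the GC and length offsets; error bars are 1 SE and filled symbols passed the adjusted threshold of 0.05. Filled circles appear in the Pvalb line at 60 min (5 genes) and for Neurod2 in the Sst line at 15 min, and filled triangles for Mef2c in the Pvalb line (0.31) and Neurod1 in the Sst line (1.69), both at 60 min.

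In purified Camk2a libraries no member passed. At 60 min shock minus home cage called 0 members by edgeR (2.3% of all genes; 4 members with an unadjusted p under 0.05; DESeq2 3). Neurod6 was at 0.88 ± 0.23 (adjusted p = 0.0511), with 348, 381, 438 and 559 CPM in home cage libraries and 511, 629, 719, 735 and 1196 CPM in shock libraries. Zbtb18 was at 0.79 ± 0.23 (adjusted p = 0.0592) and Slc17a7 at -0.45 ± 0.18. The count rested on single libraries: without shock 3, 4 members were called (Slc17a7 -0.64, Neurod6 0.95, Zbtb18 0.87, Neurod1 1.32), and Neurod6 was also called without box 2, box 3 or shock 2. GC slopes were 0.422 to 0.656 in the home cage libraries and -0.244 to 0.315 in the shock libraries. With the offsets Neurod6 was at 0.39 and Slc17a7 at -0.087. What part base composition has in these values was not tested.

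Other contrasts of this line called 0 members and 0.0% of all genes each: shock minus box (3 members at an unadjusted p under 0.05) and box minus home cage (0) at 60 min, and at 15 min shock minus home cage (1), shock minus box (0) and box minus home cage (0); DESeq2 called 0 in each. The difference between the Camk2a and Pvalb shock responses was tested directly. At 60 min 5 members differed (37.6% of all genes called): Emx1 at -1.60 ± 0.46, Slc17a7 at -1.32 ± 0.40, Neurod2 at -1.29 ± 0.40, Neurod6 at 1.38 ± 0.40 and Zbtb18 at 1.43 ± 0.46. With the GC and length offsets 1 member was called, Mef2c at -0.87. At 15 min 0 members differed by edgeR (0.00609% of all genes), DESeq2 0, and 0 had an unadjusted p under 0.05.

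The 15 min Pvalb libraries called 0 members in shock minus home cage, shock minus box and box minus home cage (0.0% of all genes in each), with an unadjusted p under 0.05 for 1, 1 and 0 members; DESeq2 called 0. Their shock response minus that of the lysates called 0 members (0.0%; DESeq2 0, and 0 with an unadjusted p under 0.05). For the Camk2a line the same difference called 0 members at 15 min (0.00638%) and 0 at 60 min (0.0%), with an unadjusted p under 0.05 for 0 and 1 members; DESeq2 called 0.

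Purified Sst libraries of the 15 min set showed the widest values. Slc17a7 was at 135, 104, 193 and 1069 CPM in home cage libraries 1 to 4, at 382, 1094 and 866 CPM in box libraries, and at 919, 2759, 1766, 3599 and 2883 CPM in shock libraries 1 to 5. In all, 4 of the 5 shock libraries lay above every home cage library, and the fifth did not. Neurod2 alone passed in shock minus home cage (1.21% of all genes called), at 2.14 ± 0.45 (4.42-fold, adjusted p = 0.0423); Slc17a7 was at 2.62 ± 0.65 (adjusted p = 0.061), Emx1 at 2.38 ± 0.56 and Mef2c at -2.08 ± 0.49. Neurod2 lost its call in 7 of 12 refits without 1 library and stood at 1.90 to 2.61. The count was 0 without home cage 1, 2 or 3 or shock 2, 3, 4 or 5, and 2, 3, 4 and 5 without box 2, box 1, home cage 4 and shock 1.

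Shock libraries 2 to 5 of that set held 2476 to 4377 CPM of the microglial list and 132 to 1313 CPM of the Sst neuron list, against 69.1 to 100.1 CPM and 2012 to 7116 CPM in the home cage libraries. Without the libraries at the lysate level of Sst markers 0 members passed and Neurod2 was at 1.81. With a covariate for glial markers, or for the line's own markers, 0 members passed. What part these markers have in the values was not tested. Shock minus box and box minus home cage called 0 members by edgeR (0.0% and 0.0% of all genes; 4 and 1 at an unadjusted p under 0.05; 0 and 0 by DESeq2).

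The Sst shock response of the purified fraction minus that of the lysate called 3 members at 15 min, where 1.58% of all genes were called: Emx1 at 2.36 ± 0.57, Neurod6 at 2.27 ± 0.58 and Neurod2 at 1.90 ± 0.48. Without the libraries at the lysate level of Sst markers, a fit with fewer libraries, 0 were called, with Neurod6 at 2.34, Emx1 at 1.90 and Neurod2 at 1.57. The count was 0 without home cage 1, 2 or 3 or shock 2, 3, 4 or 5 and 4 without home cage 4. At 60 min the difference called 0 (0.0415%; 0 members with an unadjusted p under 0.05; DESeq2 0). The purified 60 min Sst libraries called 0 members in shock minus home cage (4.49% of all genes), shock minus box (8.18%) and box minus home cage (0.0%), with an unadjusted p under 0.05 for 2, 2 and 0 members; DESeq2 called 1, 0 and 0. With the GC and length offsets Neurod1 was called in shock minus home cage, at 1.69. All 4 shock libraries of this contrast held the Sst neuron list at 175 to 495 CPM, within the range of the lysates, against 440 to 8338 CPM in the home cage libraries; the part of this in the value was not tested.

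Differences between the time sets were also tested, although set and table cannot be told apart. In purified Camk2a libraries 4 members were called (46.0% of all genes): Neurod2 was higher in the 60 min set by 1.34 ± 0.16, Slc17a7 by 1.06 ± 0.14 and Emx1 by 1.001 ± 0.24, and Mef2c was at -1.09 ± 0.24. The Camk2a lysates gave 6 calls (55.0%) with Slc17a7 at 0.84 ± 0.14, Neurod2 at 0.82 ± 0.12 and Mef2c at -1.07 ± 0.21. Neurod6 there (-0.37 ± 0.15) lost its call in 14 of 22 refits. With the offsets the purified comparison gave Neurod2 at 0.57, Slc17a7 at 0.41, Neurod6 at 0.46 and Mef2c at -0.56, and Emx1 was not called. The lysate comparison then gave 2 calls, Slc17a7 at 0.28 and Mef2c at -0.46, with Emx1 at -0.036 and Neurod6 at 0.19.

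The Pvalb line did not show it: 0 members were called in lysates (1.18% of all genes) and 0 in purified libraries (3.23%), with an unadjusted p under 0.05 for 1 member in each; DESeq2 called 0. Sst lysates called Neurod6 (0.87 ± 0.29) and Mef2c (0.88 ± 0.25), beside 35.1% of all genes, and 1 to 5 members without 1 library. The count of 5 came without box library 1 of the 60 min set, 1 of the 3 deep lysates, and Neurod6 lost its call without box library 2 of the 15 min set (0.81) or box library 4 of the 60 min set (0.69). Purified Sst libraries called 0 members (28.9%; 4 with an unadjusted p under 0.05; DESeq2 2), and 3 without home cage library 4 of the 15 min set. The shock response at 60 min minus that at 15 min called 0 members in the Camk2a line (5.71%; 4 with an unadjusted p under 0.05; DESeq2 2), 0 in the Pvalb line (0.0%; 0 and 0) and 0 in the Sst line (0.0%; 5 and 3).

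Relatives of the members and further genes of the same cell class were counted from lists. These lists were chosen with earlier results of these data known, so their counts are a description and no independent check. Among 12 effector genes of pyramidal neurons, all 12 were higher in purified Camk2a than in purified Pvalb libraries at 60 min. Their median was 2.40 beside -0.24 over all genes tested. In this comparison 61.4% of all genes were called, with 4545 of 17325 higher and 6098 lower in the Camk2a line. Nrgn, a calmodulin-binding postsynaptic protein, was at 4.25 ± 0.15, Wipf3 at 3.03 ± 0.13, the calcium sensor Hpca at 3.40 ± 0.17 and the kinase Itpka at 3.23 ± 0.16. All 12 also fell in purified Pvalb libraries against their lysates and rose in purified Camk2a libraries against theirs.

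Of 16 further transcription factors of cortical excitatory neurons, 13 were higher and 2 lower in the Camk2a line in that comparison (61.4% of all genes called). Their median was 1.35. Bcl11a stood at 2.18 ± 0.08, Bcl11b at 1.89 ± 0.09, Foxp1 at 1.77 ± 0.11 and Fezf2 at 2.23 ± 0.14; the 2 lower ones were Nfia (-0.80 ± 0.17) and Neurod4, which was at 0 in 10 of 12 Camk2a and 10 of 16 Pvalb libraries. All 12 genes of the GABA neuron list were lower in the Camk2a line, with a median of -4.85. In the Camk2a purified fraction against its lysate 10 of the 16 factors rose and 4 fell, and in the Pvalb fraction 0 rose and 10 fell, where 57.5% and 60.4% of all genes were called. By direction, 3664 of 16519 genes rose and 5839 fell in the Camk2a comparison. In the Pvalb comparison 4809 of 17167 rose and 5566 fell.

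The paralogues behaved unevenly. Slc17a8, the vesicular glutamate transporter VGLUT3 of some interneurons, had medians of 7.47 CPM in purified Pvalb and 0.161 CPM in purified Camk2a libraries at 60 min, where 5 of 12 Camk2a libraries had no read, and it rose by 1.71 ± 0.26 in the purified Pvalb fraction against lysate. Slc17a6 (VGLUT2) stood at 25.8 and 19.3 CPM and did not pass between these lines (0.61 ± 0.28). Mef2d was higher in the Camk2a line by 1.11 ± 0.14 and Mef2a by 0.46 ± 0.14, the direction opposite to that of Mef2c. Emx2 was higher there by 0.66 ± 0.21. Mef2b was at 0 in all 12 purified Camk2a and in 14 of 16 purified Pvalb libraries of the 60 min set and was not tested.

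For each member, genes with the most similar profile were taken from 12636 candidates by Pearson's r of log2(CPM + 1) over the 36 group means, which share libraries and depth. Slc17a7 ran close to Lingo1 (r = 0.953) and Rbfox3 (0.948), and Neurod2 to Grasp (0.963), Rbfox3 (0.96) and Hpca (0.952). Neurod6 ran close to Gng10 (0.97), Gabra5 (0.951) and Rasgrp1 (0.947), and Zbtb18 to Rasgrp1 (0.971) and Kcnv1 (0.939). For Neurod1 such genes were Dusp6 (0.891) and Ccdc71l (0.869), for Emx1 Inf2 (0.946), Psd (0.925) and Ppp1r1a (0.924), and for Mef2c Glrx (0.925), Vdac2 (0.923) and Mblac2 (0.923). Rasgrp1 was shared by Neurod6 and Zbtb18, and Rbfox3 by Slc17a7 and Neurod2.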

How the data were processed

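RNA counts of 151 libraries were used, of 153 samples in the labels; the names of 3 columns gave the group alone, and 2 samples without a matched column are not analysed here. The deposited values are raw read counts per gene symbol, made by the authors; 6 tables hold them, 1 for every line and time set, with purified and lysate columns side by side. GRCm38, featureCounts, STAR 2.7.7a and DESeq2 are named, without role or order, per the submitters' processing notes; the annotation and the treatment of reads that fit several genes are not given in the sources used here. Per the labels' protocols, polyA RNA was prepared with the RNeasy Mini Kit and libraries with Nextera XT. Molecular identifiers are not mentioned, so counts may include amplified copies.

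The members and gene lists were chosen with earlier results of these data known. Named genes are the 7 members, up to 4 genes per list by smallest p, family relatives, and for each member the 3 genes closest in profile with a mean of at least 1 CPM and an established symbol; some of the last are not reported here. CPM are shares of all counts listed for a library, and GC content and exon lengths come from GENCODE M21. The test on counts was that of edgeR 4.0.16 under R 4.3.3 (filterByExpr, TMM, robust estimateDisp and glmQLFit, glmQLFTest) with Benjamini-Hochberg adjustment over all genes and a threshold of 0.05, in 59 comparisons: fractions within a table, lines within a set, treatments within a table (lysates of a set together, with line as covariate), time sets within a line and fraction, and differences of responses. The script was tested on simulated counts. Library pairs within groups were compared by chi-square over genes, and none of 257 agreed within sampling noise (smallest reduced value 20.6). Alternatives were DESeq2 1.42.0, its size factors, no filter, GC and length offsets, a replicate block, home cage libraries only, marker covariates, fits without 1 line or 1 library, and, added after seeing the data, fits without the 3 deepest Sst lysates, without Sst libraries at the lysate level of Sst markers, and with a covariate for the line's own markers.

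Same-numbered libraries were not treated as pairs, since their deviations were not correlated above 0.1 in every pair. This rule cannot show that they are unpaired, since 42 of 72 pairs of purified and lysate passed 0.1. Purified and lysate libraries of a number were thus fitted as independent, and calls with a replicate block are given below. Where a mouse is named by number, the number is that of the library.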

Additional observations from a re-analysis of the deposited data

Results flagged for a closer look

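In 189 groups of 4 to 6 libraries per member, 11 single values stood far from the rest of their group; chance alone puts about 5% of such groups there. Neurod2 accounted for 3 lysate values: 83.6 CPM in Camk2a shock 3 at 15 min (others 42.2 to 44.3), 63.4 CPM in Camk2a home cage 2 at 60 min (others 106.1 to 114.5) and 113.1 CPM in Pvalb shock 5 at 15 min (others 68.9 to 72.5). Purified Camk2a shock 4 at 60 min held 139.1 CPM of Neurod1 (others 33.4 to 63.4) and 1061.4 CPM of Zbtb18 (others 537.2 to 611.9). Neurod1 was at 66.3 CPM in purified Pvalb box 2 at 60 min (others 22.6 to 25.4) and at 62.3 CPM in the lysate of Sst shock 4 at 15 min (others 37.7 to 41.9). Neurod6 was at 177.6 CPM in purified Pvalb box 4 at 60 min (others 102.0 to 110.3). In purified home cage libraries of the Sst line, Slc17a7 was at 1069.2 CPM in mouse 4 at 15 min (others 103.6 to 193.0), and Mef2c at 929.3 CPM in mouse 2 at 15 min (others 169.7 to 252.3) and at 255.4 CPM in mouse 2 at 60 min (others 98.9 to 143.2).

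Of 77 differences between shock responses, 10 passed edgeR's adjusted threshold. Between the purified Camk2a and Pvalb lines at 60 min, where 37.6% of all genes were called, these were Slc17a7 (-1.317 on the log2 scale), Neurod2 (-1.293), Neurod6 (1.379), Emx1 (-1.602) and Zbtb18 (1.435). Between purified fraction and lysate they were Neurod2 (0.9471) and Zbtb18 (-0.9015) in the Pvalb line at 60 min (20.4% of all genes called). In the Sst line at 15 min (1.58%) they were Neurod2 (1.9), Neurod6 (2.269) and Emx1 (2.365).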

How the results depend on the processing

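Of 413 member values, 115 were called. A reversal was counted where the sign changed and the value was called in the main fit, in the alternative or in both. None came with DESeq2, its size factors, no filter, the covariates, the replicate block or any refit without 1 library. All 18 reversals came with the GC and length offsets. Those were Emx1 at 0.40 (15 min lysate, Camk2a minus Pvalb), -0.098 and -0.20 (60 min lysate, Camk2a and Pvalb minus Sst), -0.036 and -0.26 (Camk2a 60 min minus 15 min, lysate and purified), -0.030 (Pvalb 60 min shock minus home cage) and -0.47 (Sst 60 min purified minus lysate). Mef2c was at -0.87 (60 min shock response, Camk2a minus Pvalb), 0.31 (Pvalb 60 min shock minus home cage) and 0.48 (Sst 60 min purified minus lysate). Neurod2 was at 0.23 and 0.0063 (15 min lysate, Camk2a minus Pvalb and minus Sst) and -0.010 (Sst 60 min purified minus lysate). Neurod6 was at -0.45 (15 min lysate, Camk2a minus Sst), 0.19 and 0.46 (Camk2a 60 min minus 15 min, lysate and purified), 0.067 (Pvalb 60 min shock minus home cage) and -0.040 (Sst lysate 60 min minus 15 min). Not all of these values were called in the main fit. Mef2c was not called there in the 60 min response of Camk2a minus Pvalb (0.24) or in Pvalb 60 min shock minus home cage (-0.36). Neurod6 was not called there in the 15 min lysates, Camk2a minus Sst (0.10), or between the purified Camk2a time sets (-0.19). The cause of the 18 reversals was not tested.

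Counts of members called moved as follows; shares of all genes called under these settings are not reported here. With the GC and length offsets they were 1, 1 and 1 in the 15 min lysates (Camk2a minus Pvalb, Camk2a minus Sst, Pvalb minus Sst; 7, 3 and 0 before), 3 and 2 in the 60 min lysates (Camk2a and Pvalb minus Sst; 7 and 7), 1 for the 60 min response of Camk2a minus Pvalb (5), 2, 1 and 1 for the time sets of Camk2a, Pvalb and Sst lysates (6, 0 and 2), 1 and 0 for the Pvalb 60 min shock response and its difference from lysate (5 and 2), 5 and 3 for Sst purified minus lysate at 15 and 60 min (1 and 7), and 0 and 1 for Sst shock minus home cage at 15 and 60 min (1 and 0). DESeq2 gave 1 for Pvalb minus Sst lysates at 15 min, 2 and 3 for the Camk2a and Sst responses at 60 minus 15 min, 3 for Camk2a 60 min shock minus home cage, 1 for Pvalb 60 min shock minus box, 2 for the Sst purified time sets, 1 for Sst 60 min shock minus home cage (all 0 before), 5 for the Pvalb 60 min response against lysate (2; with DESeq2 size factors 4), and 2, 5 and 5 for Sst 15 min purified minus lysate, shock minus home cage and response against lysate (1, 1 and 3). Without a filter they were 1 (Camk2a 60 min shock minus home cage), 2 and 2 (Sst 15 min purified minus lysate, shock minus home cage). With a glial or an own-marker covariate Sst 15 min shock minus home cage had 0. Home cage libraries only gave 4 and 0 for 15 min purified Camk2a minus Pvalb and Pvalb minus Sst (7 and 4), 2 and 3 for Camk2a purified minus lysate at 15 and 60 min (4 and 5), and 6 and 3 for the Sst line (1 and 7). Without Sst libraries at the lysate level of Sst markers they were 0, 0 and 3 (Sst 15 min shock minus home cage, its difference from lysate, and 60 min purified minus lysate, against 1, 3 and 7). The last of these fits also lacked all shock libraries.

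Same-numbered libraries were correlated above 0.1 in 42 of 72 pairs of purified and lysate (-0.77 to 0.72). That held for 9 of 10 pairs in the Camk2a line at 15 min and for 5 of 14 in the Pvalb line at 60 min. Whether a number marks 1 animal is not settled by these values. With a replicate block the counts were 2 for Camk2a 60 min shock minus home cage (0), 3 and 0 for the Pvalb 60 min shock response and its difference from lysate (5 and 2), and 0 and 0 for the same pair of Sst comparisons at 15 min (1 and 3), and 31 of 36 counts stayed within 1.5 times. Among those 31, the block called Mef2c (0.29) and Zbtb18 (0.27) in addition in Camk2a 15 min purified minus lysate (6 members against 4), and did not call Emx1 (-0.80) and Zbtb18 (-0.61) in the Pvalb line at 15 min (4 against 6) or Mef2c (-0.52) in the Sst line at 60 min (6 against 7). Leaving out 1 library or animal moved 15 counts: 0 to 3 (15 min lysate, Pvalb minus Sst), 3 to 5 (15 min purified, Camk2a minus Sst), 0 to 2 and 0 to 1 (responses at 60 minus 15 min, Camk2a and Sst), 3 to 5 (Camk2a 60 min purified minus lysate), 0 to 4 (Camk2a 60 min shock minus home cage), 0 to 1, 1 to 5 and 0 to 3 (time sets of Pvalb lysate, Sst lysate and Sst purified), 0 to 1, 3 to 6 and 0 to 6 (Pvalb 60 min shock minus box, shock minus home cage and response against lysate), and 1 to 2, 0 to 5 and 0 to 4 (Sst 15 min purified minus lysate, shock minus home cage and response against lysate). Fits without 1 line changed no member count in the lysate treatment contrasts.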
